A study of Mus musculus with 12 samples.

Results

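The transcriptome of primary rib chondrocytes lacking most lactate dehydrogenase was compared with that of littermate control cells at postnatal day 5. The 6 libraries of this comparison, 3 knockouts and 3 controls, were chosen by their labels from the 12 of the series, and all 17922 listed genes were read in them, of which 13321 had enough counts to be tested. The knockout animals were Col2-Cre:Ldha(fl/fl):Ldhb+/-, that is, both Ldha alleles could be cut by a recombinase driven from the collagen II promoter, and 1 Ldhb allele was intact. The control genotype is given only as LDH. Which floxed alleles and how many intact Ldhb alleles the controls carried, and whether they carried Cre, is not given in the sources used here. All animals were of a mixed strain with C57BL/6 predominant, and cells were freed from rib cartilage with collagenase, plated and kept overnight in medium with serum before lysis. Cre acts in cells that have used the collagen II promoter, so any other cell type in the preparation would keep its Ldha. The labels do not say whether the 3 samples of a group came from separate animals or cultures, and p-values then measure only the spread between these samples.

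Lactate dehydrogenase turns pyruvate and NADH into lactate and NAD, which lets glycolysis run without mitochondria. Its subunits are encoded by Ldha, the form of muscle and of other strongly glycolytic cells, and Ldhb, the form of the heart. Cartilage has no blood vessels and its cells are known for living mainly from glycolysis, for building a matrix of collagen II and aggrecan, and for an endoplasmic reticulum loaded with collagen.

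Each of the 6 libraries held 27130621 to 28154143 expected counts, and 15553 to 15858 genes were above 0. Levels are given as counts per 1000000 counts (CPM) after scaling within these 6 libraries, and 3 counts correspond to 0.107 to 0.111 CPM, a floor that covers counting error only. The label of cartilage cells held for most defining markers: Col2a1, Acan, Sox9, Col9a1 and Hapln1 were between 44.6 and 23281 CPM in every library, but Matn1, a matrilin of mature cartilage, was at 0.261 CPM or less in all 6. Y-linked genes summed to 93.0 and 102 CPM in control replicates 1 and 2, to 0.590 CPM in control replicate 3, and to at most 0.0367 CPM in the 3 knockouts. Genotype and Y-linked signal therefore coincide in 5 of 6 libraries, and within the libraries without that signal the controls are 1 sample. With Y-linked signal as a term in the edgeR model, 4 genes passed the adjusted p of 0.05 (Ldha, Slc2a5, Rarres1 and Plet1) against 332 without it, and 2143 had an unadjusted p under 0.05. On the first principal component, which carried 45.2% of the variance, knockout replicate 3 lay at -4.74, between the other knockouts at -24.5 and -34.1 and the controls at 15.8 to 25.2.

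The targeted genes were read first. Ldha was at 79.3, 88.8 and 92.1 CPM in the knockouts and at 851, 792 and 894 CPM in the controls. The knockouts held 10.3% of the control level, and the groups were far apart (log2 fold change -3.29, SE 0.10, adjusted p = 3.26e-07 by edgeR). Ldhb was at 14.6, 16.4 and 14.2 CPM in the knockouts and at 12.3, 11.3 and 11.4 CPM in the controls. It was thus not lower in the heterozygous knockouts, but how many intact Ldhb alleles the controls carried is not given. Its log2 fold change of 0.37 did not pass (SE 0.11, adjusted p = 0.115 by edgeR). For either gene the two-sided exact permutation p was 0.1, the smallest that 3 against 3 samples can give. By length-corrected abundance, Ldha was at 55.7 FPKM in the knockouts against 12.3 FPKM for Ldhb, and at 548 against 9.75 FPKM in the controls. The Ldha transcript that remained was thus still the more abundant of the pair in the knockout.

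Of the 13321 genes tested, 2.49% were called at an adjusted p of 0.05 by edgeR, 1.43% higher and 1.07% lower in the knockout. These shares are the background for every gene list below. The lists and their members were chosen with earlier results of these data known, so the shares are a reference and not a test. The median log2 fold change of all tested genes was 0.01 and that of the called genes was 0.75 in size. The 3 knockouts lay all above the 3 controls for 11.9% of genes and all below them for 12.5%. Of 44 gene lists, which held 1073 tested genes, the members called were 67 higher and 38 lower, while 227 called genes stood in no list. Calls depended on single libraries: of 147 called genes named in the text, 38 kept the call in each of the 6 fits that left out 1 library, and 49 kept it in at most 1 of them. The bars of the share of each list called show the cartilage matrix, S100, fat-cell and collagen-modifying lists to the right and the endoplasmic reticulum and osteoblast lists to the left.

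**Figure D1:**
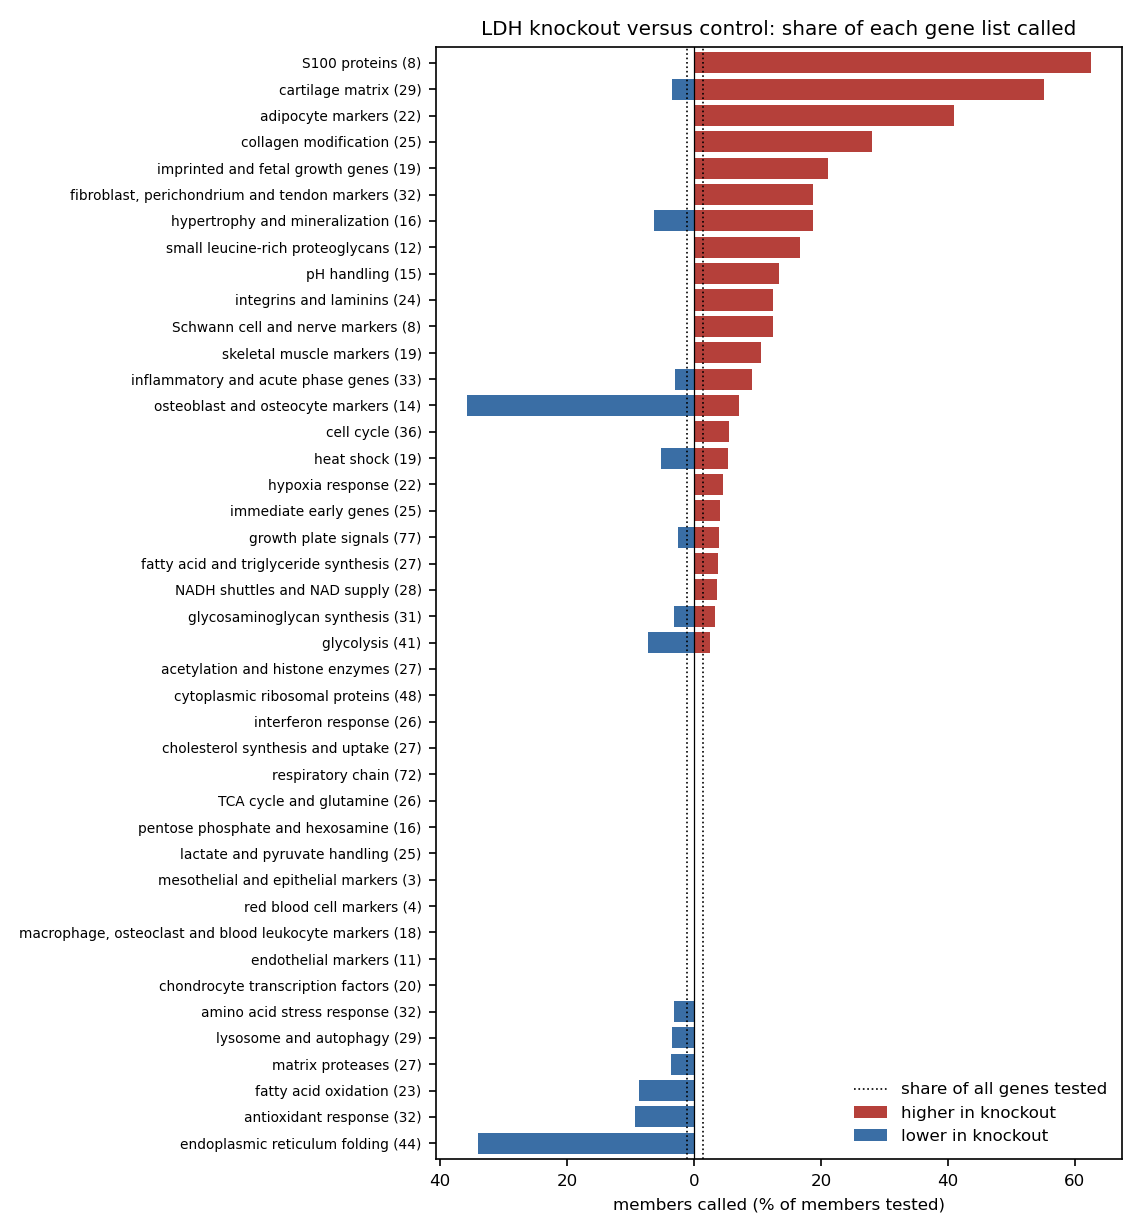
Share of each gene list called in the LDH knockout (x axis, % of tested members at an adjusted p under 0.05 by edgeR, 3 knockouts against 3 controls), with members called higher drawn to the right and lower to the left; the number tested stands after each name. Dotted lines mark the shares of all 13321 tested genes, 1.43% higher and 1.07% lower and the longest bars to the left are those of osteoblast markers, 5 of 14 members, and of endoplasmic reticulum folding, 15 of 44.

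No other list had as many members called higher as that of the cartilage matrix. Of 29 tested members 16 were called higher and 1 lower, the median log2 fold change was 1.02, and 19 lay above the controls in all 3 knockouts. The median member stood 0.93, 1.37 and 0.72 above its control mean on the log2 scale in knockout replicates 1 to 3. In these bulk samples more or fewer cells of a type and more or less RNA per cell cannot be told apart. Without 1 library in turn between 7 and 20 members were called higher, fewest without control replicate 3 and most without knockout replicate 3, where 4.01% of all genes were called higher; without either of knockout replicates 1 and 2 or of control replicate 2 the count was 11. With Y-linked signal as a term, 0 members passed, while the median was 1.03 and 26 of 29 members were above 0.

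Among the 7 fibrillar and fibril-associated cartilage collagens 6 rose, and all 7 were higher in every knockout than in every control. Col2a1, which encodes the main collagen of cartilage, was at 17348, 23281 and 14767 CPM in the knockouts and at 9531, 8170 and 9637 CPM in the controls. Its log2 fold change was 1.02 (SE 0.16, adjusted p = 0.0123 by edgeR), and it lost the call only without control replicate 3 (adjusted p = 0.0555). Col11a1, whose product sits in the core of collagen II fibrils, was at 1114, 1426 and 1017 CPM against 615, 493 and 427 CPM, and Col9a1, whose product coats them, was at 146, 252 and 132 CPM against 75.0, 44.6 and 60.6 CPM. Both rose, by 1.21 and 1.55 on the log2 scale. Col9a3 and Col11a2, further chains of these fibrils, rose by 0.74 and 0.95. Col27a1, a fibrillar collagen of the growth plate, rose the most, from 21.5, 14.6 and 15.1 CPM to 79.9, 156 and 75.6 CPM (2.60, SE 0.28). Col9a2, with 0.89 and an adjusted p of 0.0521, was the member that did not pass. In the plot of cartilage genes by sample, knockout replicate 2 was the furthest from the controls for 15 of the 16 genes called higher. The same library was the furthest for 217 of all 332 called genes.

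**Figure D2:**
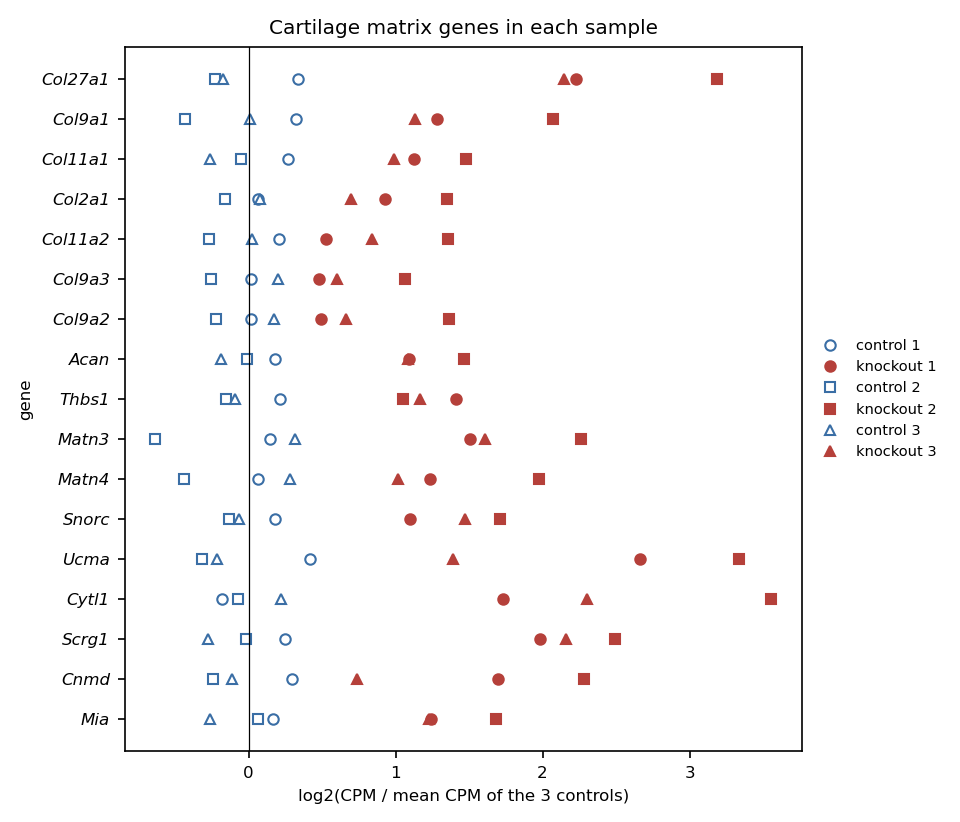
Level of cartilage matrix genes in each sample, as log2 of CPM over the mean of the 3 controls (x axis); filled red symbols are knockouts, open blue symbols controls, and shapes give the replicate number. Every knockout lies to the right of every control for these 17 genes, and knockout replicate 2 (squares) lies furthest right in most rows.

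Of 5 members of the aggrecan network 1 was called. Acan, the core protein that holds water in cartilage, rose from 899, 788 and 697 CPM to 1691, 2194 and 1688 CPM (1.22, SE 0.13, adjusted p = 0.00351), and it kept the call without any 1 library. Hapln1, the link protein that ties aggrecan to hyaluronan, was at 181, 248 and 190 CPM against 168, 134 and 110 CPM and did not pass (adjusted p = 0.0905). Of the matrilins and bridging proteins Matn3 and Matn4 rose by 1.83 and 1.47, and Thbs1, thrombospondin 1, by 1.22. Matn2 fell by 0.41 and was the single member called lower, a call that was lost in each of the 6 fits without 1 library. Comp, the cartilage oligomeric protein, was at 44.6, 87.7 and 37.9 CPM against 31.1, 8.34 and 21.8 CPM and did not pass (adjusted p = 0.099).

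Small secreted proteins of cartilage rose in 6 of 11 cases. Cytl1 rose from 2.53, 2.72 and 3.34 CPM to 9.51, 33.7 and 14.2 CPM (2.74, SE 0.42), and Ucma, a protein of the upper growth plate, from 4.53, 2.72 and 2.93 CPM to 21.5, 34.3 and 8.89 CPM (2.66, SE 0.43). Scrg1 rose by 2.22, Cnmd, the vessel-repelling chondromodulin, by 1.70, Snorc, a cartilage membrane proteoglycan, by 1.45 and Mia by 1.39. Snorc and Scrg1 kept their calls without any 1 library, whereas Cnmd and Mia kept theirs only without knockout replicate 3. Prg4, the lubricin of joint surfaces, was at 477, 627 and 470 CPM against 897, 592 and 662 CPM, overlapping between groups, and did not pass (adjusted p = 0.171).

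The transcription factors that set chondrocyte identity did not pass in any case: 0 of 20 tested members were called by edgeR. Sox9, the master regulator of the lineage, was at 710, 735 and 856 CPM against 558, 625 and 560 CPM, higher in all 3 knockouts but short of the threshold (0.40, SE 0.10, adjusted p = 0.065). Its partners Sox5 and Sox6 had log2 fold changes of 0.30 and 0.19 (adjusted p = 0.138 and 0.289). Runx2, which drives hypertrophy and bone formation, overlapped between groups at 31.3, 30.5 and 37.8 CPM against 45.5, 43.5 and 36.2 CPM. The list median was 0.10.

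Of 77 tested genes of growth plate signals 3 rose and 2 fell, and the median was 0.03. Fgfr3, a receptor that slows chondrocyte division, rose from 57.7, 41.7 and 43.1 CPM to 89.4, 103 and 88.8 CPM (0.98, SE 0.13, adjusted p = 0.00731) and kept its call without any 1 library. Fgfrl1, a receptor relative without a kinase, rose by 0.58 and Igf2, a fetal growth factor, by 0.46. The ligands Bmp4 and Wnt5a fell by 0.79 and 0.52 on the log2 scale. Those 4 calls were lost in 4 or 5 of the 6 fits without 1 library. None of the 7 tested genes of Indian hedgehog and PTHrP signalling passed by edgeR, and Ihh itself was between 0.298 and 1.10 CPM, so hedgehog ligand was near the lower limit of these libraries.

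Genes of hypertrophy and mineralization split. Col10a1, the collagen of hypertrophic chondrocytes, rose from 63.9, 116 and 64.8 CPM to 186, 327 and 282 CPM (1.70, SE 0.26, adjusted p = 0.0118). Mgp, the matrix Gla protein that restrains mineral, rose by 1.13 and Scin, an actin-severing protein, by 0.94. Spp1, osteopontin, fell from 6210, 8646 and 6972 CPM to 2436, 3866 and 4553 CPM (-1.01, SE 0.21, adjusted p = 0.0384). Col10a1 was not called without control replicate 3 (adjusted p = 0.0614), and Spp1 was called only in the fit without knockout replicate 3. Mmp13, a collagenase of the late hypertrophic zone, was at 29.5 to 41.5 CPM in the knockouts and 21.6 to 32.2 CPM in the controls and did not pass. With it, 12 of the 16 tested members did not pass.

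Markers of bone-forming cells were lower. Of 14 tested members 5 fell and 1 rose, and the median was -0.49. Sp7, the osteoblast transcription factor osterix, fell from 20.3, 21.2 and 17.2 CPM to 11.4, 6.78 and 7.02 CPM (-1.22, SE 0.20, adjusted p = 0.0164). Col1a2, a chain of collagen I, fell from 188, 112 and 134 CPM to 64.1, 70.5 and 81.8 CPM (-1.004, SE 0.17). Ostn and Pdpn fell by 0.69 and 0.86 on the log2 scale. Pdpn lost its call in each of the 6 fits without 1 library, and Ostn kept its call in 2 of them. Bglap2, osteocalcin, was at 2.87, 2.53 and 8.30 CPM against 21.1, 20.8 and 30.5 CPM (-2.40). Its near-identical copy Bglap, at 2.54, 1.83 and 10.7 CPM against 23.4, 12.2 and 27.7 CPM, did not pass (adjusted p = 0.086), and reads may be split between the copies, so either value is uncertain. The member that rose was Lox, a collagen crosslinking enzyme that chondrocytes and fibroblasts also express. Dmp1, Mepe and Sost, which define osteocytes, were at 0.146 CPM or less everywhere. The summed level of the list was 366 to 458 CPM in the knockouts and 390 to 619 CPM in the controls, overlapping. That sum includes Lox, which alone was at 264, 188 and 148 CPM in the knockouts and 126, 89.7 and 92.6 CPM in the controls. The overlap therefore does not describe the members that fell. The count of 5 fell to 0 without control replicate 3, to 1 without knockout replicate 1 or 2, and to 2 without control replicate 1.

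Collagens and enzymes shared with fibrous tissue rose with the cartilage collagens. Of 32 tested markers of fibroblasts, perichondrium and tendon 6 rose, and 3 of them encode the chains of collagen VI, a collagen that also surrounds each chondrocyte. Col6a2 rose from 1224, 892 and 996 CPM to 2074, 2480 and 1724 CPM (1.01, SE 0.15), Col6a1 by 0.61 and Col6a3 by 0.57. The other 3 were Col15a1, with 0.68, Ogn, with 0.52, and S100a4, with 0.46. The markers that define fibrous tissue did not pass: Col3a1, Dcn and Postn overlapped between groups, and Pdgfra was at 34.4 to 50.4 CPM in the knockouts and 54.3 to 60.9 CPM in the controls. The summed level of the list was 44659 to 47992 CPM against 35740 to 47484 CPM. The count of 6 went to 1 without knockout replicate 1 or control replicate 3, and to 2 without knockout replicate 2 or control replicate 2.

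Of 25 tested genes that modify or crosslink collagen 7 rose and 0 fell (median 0.24). Loxl2, a lysyl oxidase that starts crosslinks, rose from 40.1, 38.2 and 31.4 CPM to 132, 132 and 94.1 CPM (1.71, SE 0.14, adjusted p = 0.00133). Loxl4, the most abundant of that family here, rose from 1534, 1431 and 1244 CPM to 2560, 2733 and 2349 CPM (0.86, SE 0.10). Pcolce2, a procollagen trimming enhancer, rose by 1.21, P3h2 and P4ha2, prolyl hydroxylases, by 0.73 and 0.54, Lox by 0.96, and Tgm2, a transglutaminase, by 0.65. Loxl2, Loxl4, P3h2 and Pcolce2 kept their calls without any 1 library, and between 4 and 8 members were called in those fits. By FPKM, Loxl4 stood at 472 against 263, above Lox at 42.3 against 22.1 and Loxl2 at 22.6 against 7.02.

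Other matrix groups held 1 to 3 calls each. Among small leucine-rich proteoglycans, Omd rose from 5.79, 4.98 and 4.84 CPM to 14.1, 18.49 and 15.7 CPM (1.63, SE 0.15, adjusted p = 0.00194), besides Ogn named above. Of 24 tested integrin, laminin and basement membrane genes Nid2, Nid1 and Itga5 rose, by 0.91, 0.49 and 0.35. Of 31 tested genes of glycosaminoglycan synthesis Papss2, which makes the sulfate donor, rose by 0.69. Chsy1, which extends chondroitin sulfate chains, fell from 143, 122 and 128 CPM to 71.6, 72.5 and 74.1 CPM (-0.85, SE 0.08, adjusted p = 0.00194). Chsy1 lies among the 50 nearest tested genes on either side of Ldha on chromosome 7. Of 27 tested matrix proteases Adam12 fell, by 0.50 on the log2 scale.

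No other list had as many members called lower as that of protein folding and export from the endoplasmic reticulum. All 44 tested members had a log2 fold change below 0, 15 were called lower and 0 higher, the median was -0.50, and 33 lay below the controls in all 3 knockouts. The subgroup listed as unfolded protein response carried most of it, with 13 of 30 members called and a median of -0.63, against 2 of 14 and -0.24 for secretory traffic. Those 13 include Hid1, which is involved in secretory granules and trafficking from the Golgi. The unfolded protein response is the programme by which cells enlarge their folding capacity when client proteins pile up in the endoplasmic reticulum, through the sensors Ire1 (which splices Xbp1), Perk and Atf6. Relative to its control mean the median member stood at -0.54, -0.64 and -0.28 on the log2 scale in knockout replicates 1 to 3. Knockout replicate 3 was the nearest to the controls for all 15 called genes and for 37 of 44 members. Over all genes it was the nearest for 226 of the 332 called and for 7076 of the 13321 tested, so this order was not particular to the list.

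Some promoters of these genes carry the endoplasmic reticulum stress element, to which Atf6 and the transcription factor NF-Y bind. Stretches of the promoters of 5 called members are shown because they hold an exact match; capitals mark the element, either the stress element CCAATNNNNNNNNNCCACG on 1 of the strands or, for Herpud1, the second form ATTGGNCCACG. All are RefSeq sequences of build GRCm38.p6, printed 5′ to 3′ on the strand of the gene, and each ends upstream of the start site.
Hspa5, chr2:34772005-34772063, plus strand: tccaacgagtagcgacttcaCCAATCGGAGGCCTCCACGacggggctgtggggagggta
Dnajc3, chr14:118937807-118937865, plus strand: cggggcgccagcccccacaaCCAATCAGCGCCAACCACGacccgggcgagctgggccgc
Creld2, chr15:88819500-88819558, plus strand: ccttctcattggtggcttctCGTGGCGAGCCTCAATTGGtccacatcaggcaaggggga
Derl3, chr10:75893222-75893280, plus strand: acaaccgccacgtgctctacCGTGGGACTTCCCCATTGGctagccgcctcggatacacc
Herpud1, chr8:94386357-94386407, plus strand: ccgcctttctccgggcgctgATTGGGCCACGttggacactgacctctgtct

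Both elements were searched for on both strands in the RefSeq promoters, which run from 250 bases before to 50 bases after each start. The stress element was in 0.119% of 32851 promoters, in 0.190% of the 10550 tested genes with a promoter in the table, and in 10 of the 36 endoplasmic reticulum genes with one (27.8%). Of the 20 tested genes that held it 4 were called lower and 0 higher, 12 lay below the controls in all 3 knockouts and 1 above, and their median log2 fold change was -0.65. The 10 outside the list had a median of -0.19, with 3 below the controls in all 3 knockouts. Alg12, a glycosylation enzyme that faces Creld2 and shares its element, was among those 3, with -0.40 and an adjusted p of 0.0687. Also outside the list were Xlr3a, Xlr3b and Xlr3c, related X-linked genes whose counts may be shared, at -1.37, -1.32 and -1.44. None of them passed (adjusted p = 0.158, 0.241 and 0.418 by edgeR). The others outside the list lay between -0.40 and 0.61. The second form was in 0.0365% of promoters and 9 tested genes, of which 2 were called lower (Herpud1 and Dnajb11, the latter holding it after the start) and 6 lay below the controls. These matches are letters in a window and are given as a description.

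Among the chaperones of the endoplasmic reticulum and their cofactors 7 fell. Hspa5, the chaperone BiP that also holds the stress sensors inactive, was at 2038, 1646 and 3173 CPM in the knockouts and at 4031, 4731 and 4202 CPM in the controls. Knockout replicate 2 was at well under the control range and knockout replicate 3 was nearest to it, with no overlap (-0.92, SE 0.20, adjusted p = 0.0487 by edgeR). Hyou1, a nucleotide exchange factor for BiP, fell from 890, 958 and 1044 CPM to 585, 498 and 740 CPM (-0.67, SE 0.14), and the cochaperones Dnajb9, Dnajc3 and Dnajb11 fell by 1.13, 0.87 and 0.51 on the log2 scale. Creld2 fell from 118, 133 and 133 CPM to 60.3, 50.3 and 87.1 CPM (-0.96, SE 0.17), and Pdia5, a disulfide isomerase, by 0.53. Canx, a lectin chaperone of the membrane, overlapped between groups at 498, 437 and 629 CPM against 658, 721 and 576 CPM (adjusted p = 0.238). Further chaperones were below the controls in all 3 knockouts without passing: Hsp90b1 had -0.84 (adjusted p = 0.0632), Manf -0.92 and Sdf2l1 -1.27 (both 0.0614), Pdia6 -0.55 (0.0585), Pdia3 -0.55 (0.0587), Pdia4 -0.64 (0.0804) and Calr -0.51 (0.0526).

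Of the genes that remove misfolded proteins Derl3, Herpud1, Selenos and Derl1 fell, and the other members with that role did not pass. Derl3, a channel component of the degradation pathway, was at 10.6, 5.48 and 15.6 CPM against 39.8, 39.8 and 42.5 CPM (-1.94, SE 0.28, adjusted p = 0.00945). Herpud1, which assembles that pathway, fell from 474, 499 and 483 CPM to 248, 223 and 347 CPM (-0.83, SE 0.15), Selenos by 0.80 and Derl1 by 0.49 on the log2 scale. Syvn1, the ubiquitin ligase of that pathway, was at 145, 119.8 and 206 CPM against 226, 293 and 274.5 CPM and did not pass (adjusted p = 0.0592). Xbp1, the transcription factor of the Ire1 branch, fell from 183, 214 and 196 CPM to 128, 111 and 147 CPM (-0.62, SE 0.11, adjusted p = 0.0223); the table does not separate its spliced form. Ddit3, the transcription factor Chop of the Perk branch, was at 357, 358 and 454 CPM against 501, 567 and 582 CPM and did not pass (adjusted p = 0.0532). Hid1, which is involved in secretory granules and trafficking from the Golgi, was at 4.03, 1.75 and 6.33 CPM against 19.2, 24.1 and 19.3 CPM (-2.37, SE 0.34). In secretory traffic proper Sec24d, a coat component needed for collagen export, fell by 0.69 and Mia3, the procollagen loading receptor Tango1, by 0.34.

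**Figure D3:**
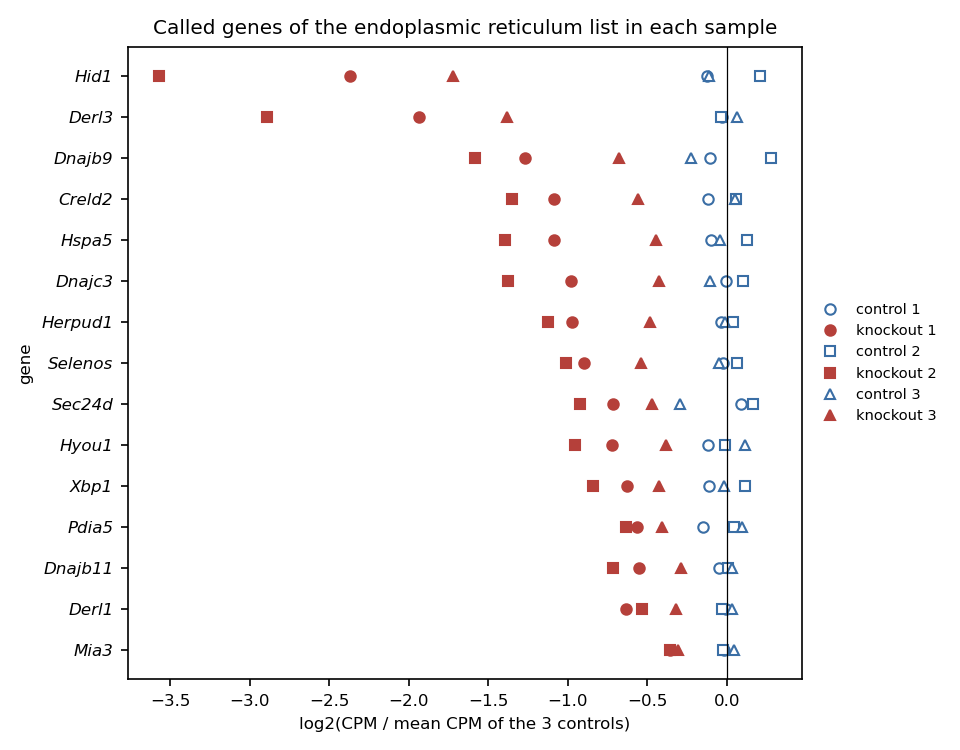
The 15 called members of the endoplasmic reticulum list in each sample, as log2 of CPM over the mean of the 3 controls (x axis); filled red symbols are knockouts, open blue symbols controls, and shapes give the replicate number. Every knockout lies left of every control, and knockout replicate 3 (triangles) is the nearest to the controls in each row.

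The number of endoplasmic reticulum members called depended on single libraries. It was 29 without knockout replicate 3, where 3.89% of all genes were called lower, and 2, 4, 5, 3 and 3 without knockout replicates 1 and 2 and control replicates 1, 2 and 3. Hid1 kept its call without any 1 library, and Derl3 and Selenos in 5 of 6 such fits, while Hspa5, Herpud1, Hyou1 and Dnajb9 kept theirs only without knockout replicate 3. With no filter on low counts 23 members were called and with DESeq2 25. The median stayed between -0.60 and -0.41 in the fits without 1 library. With Y-linked signal as a term it was -0.47, with 40 of 44 members below 0 and 0 called. From the 227 called genes in no list, 11 that fell were picked after their values were seen for a known role in secretion or its control, so they are single genes and not a group with a count or a test. They were the signal recognition particle receptor Srpr (-0.58), the signal peptidase subunit Spcs2 (-0.43), the oligosaccharyltransferase subunit Stt3a (-0.49), the transport factors Sec23b (-0.57), Uso1 (-0.40) and Surf4 (-0.54), the isomerase Fkbp11 (-0.97), the stress sensor kinase Perk (Eif2ak3, -0.64), the secretory transcription factor Mist1 (Bhlha15, -2.10), Nucb2 (-1.17) and the nucleotide carrier of secretory vesicles Slc17a9 (-1.15).

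Genes of fat cells rose from very low levels in the controls. Of 22 tested markers 9 were called higher and 0 lower, with a median of 0.66. Plin1, the coat protein of lipid droplets, was at 4.68, 7.45 and 2.67 CPM in the knockouts and at 0.105, 0.212 and 0.188 CPM in the controls (4.84, SE 0.48, adjusted p = 0.00286). Fabp4, a fatty acid carrier, was at 11.5, 25.3 and 6.14 CPM against 1.37, 0.742 and 1.43 CPM (3.60, SE 0.50), and Car3, carbonic anhydrase 3 of fat and muscle, at 12.6, 26.1 and 6.33 CPM against 0.597, 0.883 and 1.13 CPM (4.11, SE 0.51). Knockout replicate 2 was the highest and knockout replicate 3 the lowest knockout for all 9, in the order shown by the plot of fat-cell markers. Among all 332 called genes knockout replicate 2 was the furthest from the controls for 217 and knockout replicate 3 the nearest for 226. Cfd, Cidec, Pck1, Adipoq, Gpd1 and Plin4 rose by 5.65, 4.72, 3.89, 3.52, 3.11 and 2.46, where the controls of Cfd, Cidec and Pck1, like those of Plin1, were at or near the floor of 3 counts, so that the fold changes of these 4 genes depend on the prior count of the fit. Adipoq, the hormone adiponectin that defines fat cells, was at 3.16, 6.63 and 1.06 CPM against 0.457, 0.247 and 0.225 CPM. Its call was kept in only 1 of the 6 fits without 1 library, and that of Pck1 in 2. Plin1, Plin4, Car3 and Gpd1 kept their calls in all 6, and Fabp4, Cfd and Cidec lost theirs only without control replicate 3. The regulators of the lineage did not pass: Pparg was at 9.26, 7.08 and 9.03 CPM against 5.48, 6.22 and 5.56 CPM (adjusted p = 0.0897), and Cebpa had -0.38 (adjusted p = 0.129). The list as a whole summed to 934 to 1153 CPM in the knockouts and 706 to 1049 CPM in the controls. Between 7 and 9 members were called without 1 library, except 4 without control replicate 3, and 0 with Y-linked signal as a term, where Plin1 had 4.68 (adjusted p = 0.103).

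**Figure D4:**
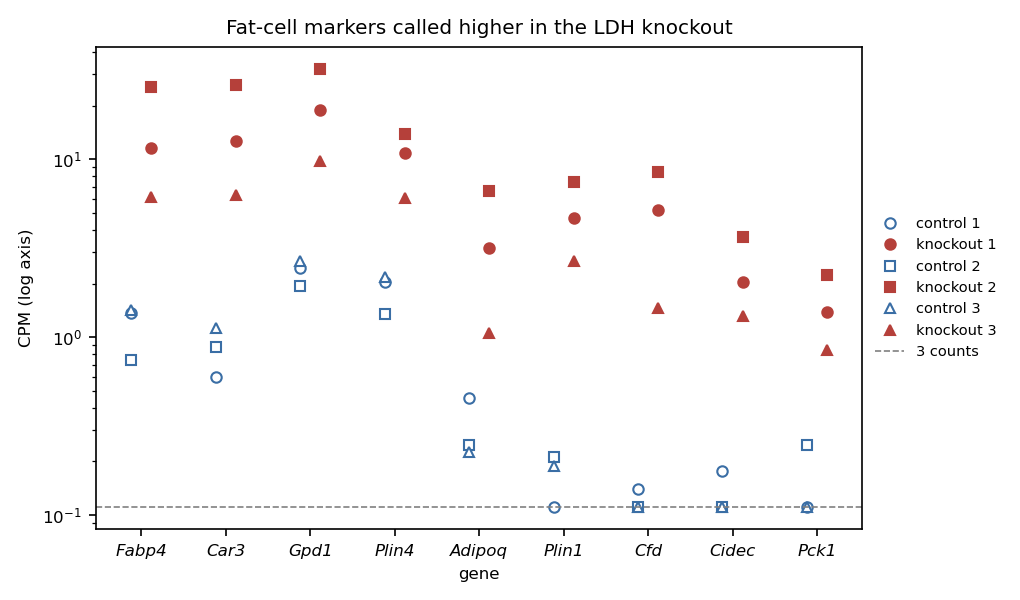
Levels of the 9 fat-cell markers called higher, in CPM on a log axis, in each of the 3 knockouts (filled red) and 3 controls (open blue), with shapes for the replicate number; the dashed line is the level of 3 counts, and values under it are drawn on it. For every gene knockout replicate 2 (squares) is the highest sample and all controls lie below all knockouts.

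Plin1 and Fabp4 were then read in the other set, after these values had been seen, and the other called markers are not given there. That set was taken at E18.5 from Acly knockouts and their controls and scaled together with these libraries. Plin1 was at 1.84 to 8.10 CPM in those 6 samples, against 2.83 to 7.87 CPM in the LDH knockouts and 0.112 to 0.225 CPM in the LDH controls on that scale. Fabp4 was at 8.30 to 30.5 CPM there, against 6.52 to 26.7 CPM and 0.786 to 1.50 CPM. The LDH controls were thus the low samples among the 12 for both genes, and age and genotype differ between the sets.

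Few inflammatory genes passed, and most that did are acute phase genes. Of 33 tested 3 rose and 1 fell. Lrg1, a secreted glycoprotein of the acute phase response, was at 10.7, 15.4 and 4.72 CPM against 0.421, 0.212 and 0.563 CPM (4.68, SE 0.49, adjusted p = 0.00316). Serpina3n, a protease inhibitor, rose from 28.7, 22.2 and 24.3 CPM to 103, 199 and 61.4 CPM (2.27, SE 0.35), and C4b, complement component 4, by 1.97. Both have close relatives in the genome, so their counts may be shared. Knockout replicate 2 was again the highest. Ptgs2, the inducible cyclooxygenase, fell by 0.56 on the log2 scale. Cebpd, a transcription factor of the acute phase response, was at 310, 353 and 143 CPM against 125, 64.1 and 120 CPM and did not pass (adjusted p = 0.0573). Without knockout replicate 3, 10 members were called higher, and 0 of 26 tested interferon genes were called by edgeR, with a median of 0.36.

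The metabolic genes around the deleted enzyme changed little. Of 25 tested genes that handle lactate and pyruvate 0 were called by edgeR, and the median was -0.01. The lactate transporter Slc16a1 was at 90.9, 99.2 and 91.6 CPM against 90.1, 95.6 and 89.5 CPM, a log2 fold change of 0.03 (SE 0.07). Ldhd, which oxidizes D-lactate, was at 0.762, 1.01 and 0.914 CPM against 0.457, 0.459 and 0.338 CPM and did not pass (1.09, adjusted p = 0.111). Pdk4 and Pdk1, kinases that keep pyruvate out of mitochondria, were at lower levels in all 3 knockouts without passing (-0.99, adjusted p = 0.11, and -0.28, adjusted p = 0.149).

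Routes that could reoxidize NADH in place of lactate dehydrogenase were read next. Of 28 tested genes of NADH shuttles and NAD supply only Gpd1 was called. Gpd1, the glycerol phosphate dehydrogenase of the cytosol, was at 18.99, 32.2 and 9.73 CPM against 2.46, 1.94 and 2.67 CPM (3.11, SE 0.39, adjusted p = 0.00716), and it kept the call without any 1 library. It is also a fat-cell marker, and the part of fat cells in its rise was not tested. Its relative Gpd1l was at 8.86, 9.36 and 8.78 CPM against 7.62, 7.95 and 6.57 CPM (0.29, adjusted p = 0.271). In the malate-aspartate shuttle 0 of 7 genes passed by edgeR: Mdh2 had 0.19 and Got1 -0.12 (adjusted p = 0.284 and 0.398). Nnmt, which uses up nicotinamide, was at 1.42, 2.57 and 1.72 CPM against 4.21, 2.86 and 3.53 CPM and did not pass (adjusted p = 0.105).

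Glycolysis as a list did not move in 1 direction, with 1 of 41 tested members called higher and 3 lower. Slc2a5, the fructose transporter, was nearly lost, at 0.762, 0.745 and 1.13 CPM against 11.7, 10.4 and 11.98 CPM (-3.68, SE 0.20, adjusted p = 3.62e-05). Slc2a6 fell from 4.57, 5.30 and 5.11 CPM to 1.89, 0.745 and 1.83 CPM (-1.74, SE 0.30), and Eno2, the neuronal enolase, by 0.50 on the log2 scale. Slc2a5 kept its call in all 6 fits without 1 library, Slc2a6 in 4 of them and Eno2 in 2. The main glucose transporter Slc2a1 was at 276, 316 and 296 CPM against 336, 371 and 345 CPM and did not pass (-0.25, adjusted p = 0.156). Abundant glycolytic enzymes were slightly higher without passing: Gapdh, Aldoa and Pkm had log2 fold changes of 0.26, 0.25 and 0.25 (adjusted p = 0.177, 0.163 and 0.201). Pck1, an enzyme of glucose and glycerol synthesis and a fat-cell gene, was the member called higher. Eno1b, which is nearly identical to Eno1 and so uncertain, was at 518, 645 and 578 CPM against 237, 245 and 284 CPM, while Eno1 had 0.04.

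**Figure D5:**
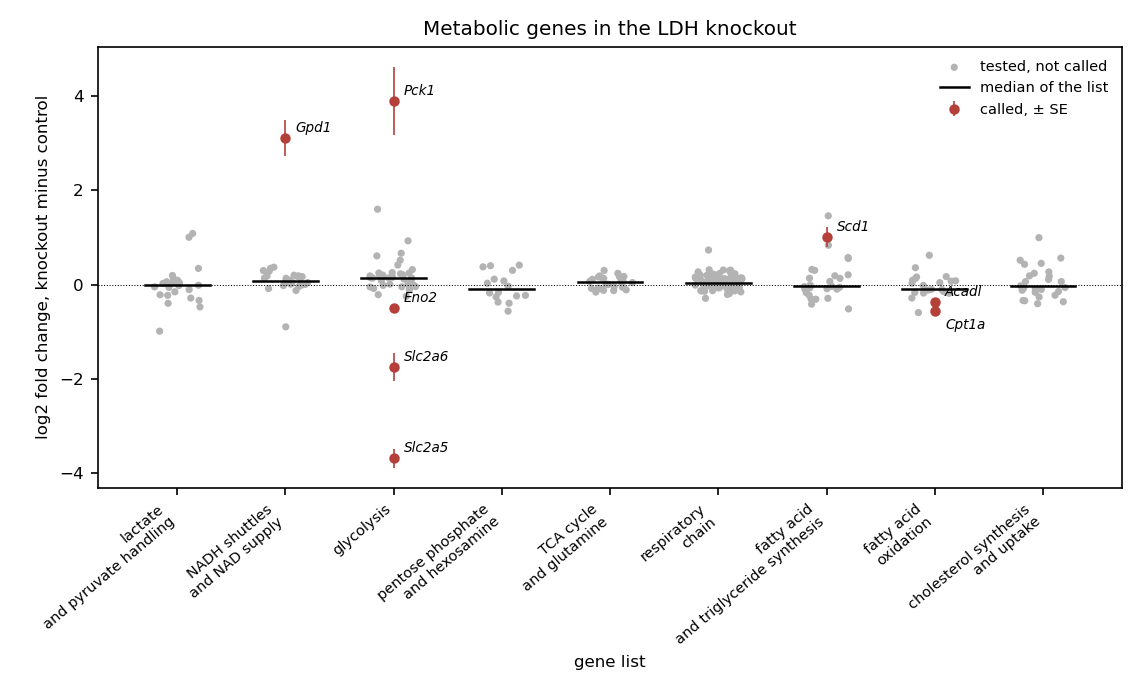
Log2 fold changes, knockout minus control (y axis), of the tested members of 9 metabolic gene lists (x axis); grey points were not called, red points were called at an adjusted p under 0.05 by edgeR and carry their SE and name, and black bars are list medians. List medians lie between -0.10 and 0.14, and Slc2a5 and Pck1 are the lowest and highest points, at -3.68 and 3.89.

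Mitochondrial metabolism showed no calls by edgeR among 26 tested genes of the TCA cycle and glutamine use, with a median of 0.05, and none among 72 of the respiratory chain, with a median of 0.04. The 27 tested genes of cholesterol synthesis and uptake and the 16 of the pentose phosphate and hexosamine pathways likewise held 0 calls, although G6pdx, the entry enzyme of the pentose phosphate pathway, was at 152, 165 and 139 CPM against 119, 123 and 104 CPM (0.40, adjusted p = 0.0566). In fatty acid synthesis Scd1, a desaturase, rose from 92.0, 92.0 and 75.4 CPM to 144, 250 and 129 CPM (1.01, SE 0.22). In fatty acid oxidation 2 of 23 genes fell: Cpt1a, which admits fatty acids to mitochondria, from 32.8, 30.9 and 29.1 CPM to 20.004, 21.1 and 22.4 CPM (-0.55, SE 0.09), and Acadl by 0.37. Of 32 tested antioxidant genes Prdx6, Srxn1 and Gsto1 fell, by 0.46, 0.45 and 0.43, and Hmox1, heme oxygenase, was at 659, 812 and 993 CPM against 1149, 1185 and 1212 CPM without passing (adjusted p = 0.0733). The calls of Acadl, Prdx6, Srxn1 and Gsto1 were each lost in 5 of the 6 fits without 1 library. Scd1 and Cpt1a each kept theirs in 2 of those fits.

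Calcium-binding proteins of the S100 family rose in 5 of 8 tested cases. S100a1 rose from 42.3, 41.6 and 40.1 CPM to 69.5, 77.4 and 67.7 CPM (0.79, SE 0.08, adjusted p = 0.0031). S100b, a known target of Sox9 in cartilage that also marks glia, rose from 9.17, 7.98 and 6.57 CPM to 24.3, 31.6 and 16.1 CPM (1.60, SE 0.23), and S100a13, S100a10 and S100a4 by 0.59, 0.50 and 0.46. S100a1 kept its call without any 1 library, and the count of 5 went down to 1 without control replicate 3 and to 2 without knockout replicate 1 or control replicate 1. Of 19 tested imprinted and fetal growth genes 4 rose: Mest by 0.89, Slc38a4, an amino acid transporter, by 0.78, Igf2 as given above, and Nnat by 3.48 from control levels of 0.351, 0.0353 and 0.0375 CPM, at or near the floor. The count of 4 went to 0 without knockout replicate 1, control replicate 2 or control replicate 3, and to 1 without knockout replicate 2. Of 36 tested cell cycle genes Mcm6 and Mcm4, subunits of the replication helicase, rose by 0.69 and 0.51, and 0 were called in each fit without 1 library except 4 without knockout replicate 3.

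Further groups held at most 2 calls each. Ctgf, a matricellular protein that mechanical and TGF-beta signals induce, rose from 190, 184 and 204 CPM to 523, 528 and 359 CPM (1.29, SE 0.14, adjusted p = 0.00357) and was the single call among 25 immediate early genes. Of 19 heat shock genes Hspb8 fell by 0.98 on the log2 scale and Cryab, a related small heat shock protein, rose by 0.69. Of 15 genes of pH handling Car5b, a mitochondrial carbonic anhydrase, rose by 1.05 besides Car3. Of 32 genes of the amino acid stress response Bcat2, the mitochondrial enzyme that starts the breakdown of branched-chain amino acids, fell from 113, 119 and 122 CPM to 69.2, 78.9 and 78.9 CPM (-0.64, SE 0.08). Of 22 hypoxia genes P4ha2 rose, and of 29 genes of lysosome and autophagy Gabarapl1 fell by 0.34. The call of Gabarapl1 was lost in each of the 6 fits without 1 library. Ribosomal protein genes (48 tested) and enzymes of acetylation (27 tested) held 0 calls by edgeR, with medians of 0.08 and 0.01.

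Markers of further cell types held few calls. Skeletal muscle markers summed to 42.3 to 72.4 CPM in the knockouts and 41.2 to 70.8 CPM in the controls. The calls among them, Tnnt3 and Tnni2, were at 2.65 CPM or less in all samples. Endothelial markers summed to 157 to 167 CPM against 136 to 196 CPM, leukocyte markers to 167 to 274 CPM against 208 to 241 CPM, and red blood cell markers to 12.1 to 35.8 CPM against 27.9 to 42.6 CPM, with 0 calls by edgeR in each. Markers of Schwann cells and nerve summed to 40.4 to 52.1 CPM against 22.9 to 29.0 CPM, without overlap, and S100b was the member called. Without S100b the sums were 20.54 to 24.3 CPM against 16.4 to 20.52 CPM. Sox10, a defining transcription factor of Schwann cells, overlapped between groups at 1.45, 1.94 and 2.9985 CPM against 2.39, 3.36 and 1.35 CPM.

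Among the genes with the largest changes, some belong to none of the groups above. Syt8, a synaptotagmin, was at 8.06, 12.04 and 6.03 CPM against 2.56, 1.91 and 2.10 CPM (1.99, SE 0.26). Itih5l-ps, a pseudogene with uncertain counts, rose by 2.02. Rarres1, a retinoid-induced membrane protein, fell from 18.7, 19.9 and 20.7 CPM to 6.68, 5.37 and 7.06 CPM (-1.63, SE 0.13, adjusted p = 0.00133) and passed with Y-linked signal as a term as well (-1.70, adjusted p = 0.0369). Kctd12, Homer2 and Tox2 fell, with log2 fold changes of -1.69, -1.31 and -1.17. Homer2, a scaffold protein, was at 2.54, 2.76 and 3.47 CPM against 6.71, 7.24 and 7.81 CPM.

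Calls near the targeted genes on their chromosomes were counted. Among the 50 tested genes on each side of Ldha on chromosome 7, 5 of 100 were called (5.0%) and all 5 fell: Bcat2, Grin2d, Otog, Selenos and Chsy1. Near Ldhb on chromosome 6, 3 of 85 were called (3.53%), 2 higher and 1 lower. On chromosome 7 as a whole 37 of 1019 genes were called (3.63%). Of all genes tested 2.49% were called in either direction, and 1.07% were called lower. Near Eno1 on chromosome 4, which was not targeted and was picked with values of these data known, 5 of 100 were called and all fell. On chromosome 4 as a whole 15 of 855 genes were called (1.75%). Those near Eno1 included Slc2a5, Fbxo44 (-1.90) and Zfp984 (-4.27). Zfp984 belongs to a family of similar zinc finger genes and was at 0, 0.112 and 0.110 CPM against 1.65, 1.73 and 1.13 CPM.

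The LDH effect was set against the Acly effect to ask which changes differed between the knockouts. The test of the difference, an edgeR interaction over all 12 libraries, called 0.161% of 14251 genes, 13 with a more positive LDH effect and 10 with a more negative one. Ldha led (difference -3.18, SE 0.14), then Slc2a5 (-3.21, SE 0.27), for which the Acly effect was -0.45. Loxl2 had 1.71 in the LDH comparison and -0.10 in the Acly comparison (difference 1.82, SE 0.20, adjusted p = 0.00171). Clu, a secreted chaperone of the matrix, had 1.62 and -0.45 (difference 2.09, SE 0.27). Plet1, Hspb8, P3h2, Chsy1 and Bcat2 also differed, with differences of 2.62, -1.19, 0.65, -0.73 and -0.75. None of the 29 cartilage matrix or 44 endoplasmic reticulum members was called in that edgeR test. In the Acly comparison itself the cartilage matrix list had a median log2 fold change of 0.42, with 4 members called by edgeR. The endoplasmic reticulum list had -0.29 there, with 0 called. The LDH medians of these lists, 1.02 and -0.50, had the same directions. Hspa5, for example, had -0.92 in the LDH and -0.57 in the Acly comparison (difference -0.33, SE 0.25, adjusted p = 0.578), so a difference was not detectable there. Gene deleted and age coincide in this test and cannot be told apart. Y-linked signal was in 0 of 3 LDH knockouts and 2 of 3 of their controls, and in 2 of 3 Acly knockouts and 1 of 3 of their controls. With it as a term, an alternative chosen after seeing the data, 6 of the 23 genes were called, among them Ldha, Slc2a5, Loxl2, Plet1 and Fbxo44, and all 23 had the same sign (1537 genes had an unadjusted p under 0.05, against 1855 without the term).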

How the data were processed

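RNA-seq values of 12 libraries of mouse rib chondrocytes were deposited as 1 table, of which the 6 libraries of the LDH set were analysed in full. The 6 of the Acly set were used for the Acly effects and the difference between the effects. They also served for the levels of Plin1 and Fabp4 and for an alternative fit of all 12 libraries. Per the file headers the authors deposited a read count, an FPKM and a TPM value for each of 17922 genes and each library. Between 7.32% and 8.16% of the deposited counts of a library are not whole, so the deposited read counts were handled as the authors' estimated counts and rounded to whole numbers. HISAT2 2.0.4 and the genome build mm9 are named in the submitters' processing notes, and per the labels' protocols the libraries were made from RNA purified on oligo(dT) beads. The counting program, annotation and use of strand are not given in the sources used here, so genes with near-identical copies, overlapping or antisense genes are uncertain. The deposited FPKM values served to compare levels between genes and for an alternative test, and the deposited TPM values were not used.

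Rounded counts were tested with edgeR 4.0.16 in R 4.3.3 (TMM scaling, filterByExpr, two-sided quasi-likelihood F test, Benjamini-Hochberg adjustment over all genes tested, threshold 0.05) on the 6 libraries with group as the only term. The script was tested on simulated data. CPM values are TMM-scaled. Medians and counts describe gene lists, with no set test. Alternatives used DESeq2 1.42.0, limma 3.58.1 on log2(FPKM + 0.1), other scalings and filters, the replicate number as a block, a term for Y-linked signal above 10 CPM, and each library left out. Named genes are the targeted genes, the 12 largest rises and falls with a mean of at least 5 CPM and no overlap between groups, the called members of each list with up to 4 others of lowest p, the lowest p of the interaction test and the defining cell type markers; all other names, such as further members of a list, relatives of a named gene and genes in no list, were chosen after their values were seen. The members and lists were chosen with earlier results of these data known. Of the 17922 gene identifiers, 17814 were found in the RefSeq table of GRCm38.p6, which gave names, chromosomes and neighbours. Promoter sequences and their coordinates are those of RefSeq GRCm38.p6, not of the build used by the authors. No unmapped column of sample values was present.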

Additional observations from a re-analysis of the deposited data

Results flagged for a closer look

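The test of the LDH effect against the Acly effect called 23 genes of 14251 by edgeR, and each result below differed between the sets in that test. The differences, LDH minus Acly on the log2 scale, were -3.18 for Ldha, -3.21 for Slc2a5, -3.99 for Zfp984, -2.10 for Fbxo44, -1.19 for Hspb8, -0.75 for Bcat2 and -0.73 for Chsy1. Toward a more positive LDH effect they were 4.46 for Lrg1, 4.10 for Plin1, 2.62 for Plet1, 2.24 for C4b, 2.09 for Clu, 1.82 for Loxl2 and 0.65 for P3h2. Of these, Plet1 was at 35.3, 34.1 and 31.9 CPM in the LDH knockouts against 17.3, 17.4 and 8.94 CPM in their controls, and its Acly effect was -1.40. The LDH and Acly sets differ in age as well as in the gene deleted. Slc2a5, Zfp984 and Fbxo44 lie among the 50 tested genes on either side of Eno1, and Bcat2 and Chsy1 among the 50 on either side of Ldha.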

How the results depend on the processing

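The count of 332 called genes was 902 with DESeq2 (all 332 among them), 4 with Y-linked signal as a term, and 95 to 1068 without 1 library, lowest without control replicate 3 and highest without knockout replicate 3, where 327 of the 332 were shared. The Y-linked term leaves the control at 1 library without that signal; for the other changes of count the cause was not tested. It stayed between 281 and 445 under median-of-ratios scaling, no scaling, no filter, a mean of at least 1 CPM, limma on FPKM, the fit of all 12 libraries and the replicate block. The count of 23 for the difference between the effects was 213 with DESeq2, 5 with the replicate block, 6 with Y-linked signal as a term (added after seeing the data), and 6 to 143 without 1 library. Ldha and Ldhb kept their direction and their side of the threshold under every alternative run. Among the other named genes that were tested 4 changed sign, none of them called. Slc16a1 was between -0.0020 (without knockout replicate 2) and 0.0595 (without control replicate 2) in the fits that left out 1 library. In those fits Ihh was between -0.49 (without knockout replicate 3) and 0.64, Sox10 between -0.48 and 0.18, and Eno1 between -0.0075 and 0.13. With Y-linked signal as a term Sox10 was at 0.65 and Eno1 at -0.0519. Of 146 called named genes other than Ldha, 46 to 143 kept the call without 1 library.

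Same-numbered knockout and control libraries did not deviate together, with correlations across genes of 0.05, -0.16 and 0.01 for replicates 1 to 3, so the numbers were not treated as pairs. With the replicate block 362 genes were called, 265 of them among the 332, and not every library correlated best with its own number. Depth limits genes near 0.11 CPM, where 3 counts decide.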

Other observations

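Some called genes that stand in no list, picked with their values known, are given as single genes, with no count of related genes that did not pass. Among secreted proteins of blood plasma, Rbp4, the retinol carrier, rose from 8.99, 6.99 and 8.37 CPM to 19.2, 28.4 and 16.1 CPM (1.39, SE 0.20, adjusted p = 0.0105 by edgeR), A2m, a protease inhibitor, by 1.54, and Agt, angiotensinogen, by 1.71. Serpina1b and Serpina1d, near-identical genes for alpha-1 antitrypsin whose counts may be shared, were at 0 in all 3 controls, which allows up to 0.111 CPM. In the knockouts Serpina1b was at 0.508, 2.61 and 2.05 CPM and Serpina1d at 0.472, 2.61 and 4.32 CPM, so here knockout replicate 1 and not replicate 3 was the lowest. Alb, the main plasma protein of the liver, was at 0.318 CPM or less in all 6 libraries. Ccdc80, Enpp2 and Mrap, which fat tissue also expresses, rose by 1.57, 0.98 and 2.34.

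Of basement membrane chains outside the lists, Lamb3 rose from 3.09, 4.45 and 3.08 CPM to 16.3, 11.2 and 8.37 CPM (1.75, SE 0.25), and Col4a5 by 1.64. Pold1, Chaf1a, Dnmt1 and Nasp, which act in DNA replication or in copying chromatin, rose by 0.97, 0.75, 0.72 and 0.43, but Pold1, Chaf1a and Nasp kept the call in only 1 of the 6 fits without 1 library, and of the 36 listed cell cycle genes 2 were called, with a median of 0.08. Trpv4, a cation channel of chondrocytes, rose from 100, 82.1 and 82.1 CPM to 148, 194 and 123 CPM (0.82, SE 0.15). Ecm1, a secreted matrix protein, fell from 252, 282 and 279 CPM to 150, 158 and 185 CPM (-0.72, SE 0.10) and kept the call without any 1 library. Angptl2, a secreted angiopoietin-like protein, fell by 0.60 on the log2 scale.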
